A study of Mus musculus with 6 samples.

Results

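The genes of proteoglycan core proteins and of the enzymes that build and modify their glycosaminoglycan chains were examined in cultured cells labelled as mouse lung microvascular endothelial cells, from mice labelled Ptprz1+/+ and Ptprz1-/-. The members were all protein-coding genes of the deposited table whose symbol is that of a syndecan, a glypican, versican, aggrecan, brevican, biglycan, decorin, lumican or perlecan, or of a listed xylosyltransferase, chain polymerase, epimerase, sulfotransferase or endosulfatase. The rule used the symbol and the gene type. There were 61 members among 21999 genes, 17 for core proteins and 44 for enzymes, and 46 of them (14 core proteins and 32 enzymes) had enough counts to be tested beside 13609 genes in all.

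A proteoglycan is a core protein to which long sugar chains are attached through a short linker, and the chains are extended as heparan sulfate, chondroitin sulfate or dermatan sulfate before sulfotransferases and epimerases pattern them. The pattern of sulfate groups sets which growth factors, chemokines and matrix proteins a chain binds, and in blood vessels heparan sulfate on the endothelial surface holds growth factors, chemokines and antithrombin. The receptor tyrosine phosphatase encoded by Ptprz1 is itself a chondroitin sulfate proteoglycan, and its ligand pleiotrophin binds to glycosaminoglycan chains.

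RNA was sequenced from untreated cells of SV129/B6 mice, with 3 separate isolations for the Ptprz1+/+ genotype and 3 for Ptprz1-/-. Lungs of 2 to 5 mice aged 3 to 8 weeks were pooled for an isolation, and the digested tissue was cultured to confluence with heparin and endothelial growth supplement before cells were taken with magnetic beads against CD31. The 3 values of each genotype are given below in the order of replicates 1, 2 and 3. Levels are given as CPM (counts scaled to the normalised library size) where 1 gene is compared between libraries, and as RPKM (the same per kilobase of gene length) where genes are compared with each other.

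The libraries held 14496881 to 17709663 counts, of which the members took 0.811% to 1.18%. Counts of Ptprz1 did not separate the genotypes: they were 197, 1837 and 508 in the Ptprz1+/+ libraries and 1138, 1320 and 895 in the libraries labelled Ptprz1-/-, so each direction below is that of the labels (log2 fold change 0.60, SE 0.70, exact permutation p = 0.5, two-sided, where the smallest p that 3 against 3 allows is 0.1). Which part of the gene the deletion removes is not given in the sources used here. Whether these counts lie on a part that remains is therefore not known, and the labels were left unchecked. The summed level of 12 endothelial markers was 131, 94.0 and 687 CPM in Ptprz1+/+ and 85.7, 131 and 274 CPM in Ptprz1-/-, with no marker at 0. Of these, Eng alone had 101, 59.4 and 142 CPM in Ptprz1+/+ and 59.6, 115 and 90.5 CPM in Ptprz1-/-. It thus made up most of the sum in the libraries numbered 1 and 2. By contrast, 11 fibroblast markers summed to between 24152 and 36753 CPM. Pecam1, which encodes CD31, had between 22 and 1443 counts. The 2 libraries numbered 3 stood apart by their endothelial markers, Ptprz1+/+ replicate 2 by 6 proliferation markers (667 CPM against 48.9 to 144 CPM in the other 5 libraries), and Ptprz1-/- replicate 1 by 6 mesothelial markers (1380 CPM against 55.8 to 279 CPM). The markers also differed in direction between the genotypes. The log2 fold change was above 0 in 0 of the 12 endothelial, 0 of the 6 proliferation and all 6 mesothelial markers. Their medians were -1.36, -1.69 and 2.40. For the fibroblast markers it was above 0 in 5 of 11 (median -0.11). The part of these differences in the values of the members was not tested. In such bulk samples, fewer cells of a type and less RNA per cell cannot be told apart.

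Between the genotypes, none of the 46 members passed the test. The lowest adjusted p was 1.00 (quasi-likelihood test of edgeR, Benjamini-Hochberg adjusted over 13609 genes), and 0% of all genes tested passed it. DESeq2 called 0 members as well, with a lowest adjusted p of 0.534, while it called 31 of 16398 genes (0.189%). At an unadjusted p under 0.05, edgeR had 2 members, Sulf1 and Csgalnact1, which is 4.35% of the 46 against 2.69% of all genes tested, and DESeq2 had 5 of 61 (8.2% against 2.57% of 21943 genes). With the replicate number as a block, which the libraries were not taken to share, 9 of the 46 had one (19.6% against 5.07%).

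Of the 46 members, 33 had a log2 fold change below 0, which is 71.7% against 50.9% of all genes tested, and the median was -0.17 against -0.00466. The lower side held 11 of 14 core proteins and 22 of 32 enzymes. Ptprz1-/- replicate 1 had the lowest CPM of the 6 libraries for 22 members (47.8% against 16.3% of all genes tested), and Ptprz1+/+ replicate 2 had the highest for 19 (41.3% against 26.9%). Without Ptprz1+/+ replicate 2 the lower side held 31 members (67.4% against 48.6% of all genes), without Ptprz1-/- replicate 1 it held 28 (60.9% against 52.7%), and without both libraries numbered 3 it held 30 of 45 (66.7% against 50.5%). Without both Ptprz1+/+ replicate 2 and Ptprz1-/- replicate 1 it held 19 (41.3% against 51.1%), but these libraries were picked as extreme for the members, and leaving out both lowers the count by construction.

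**Figure D1:**
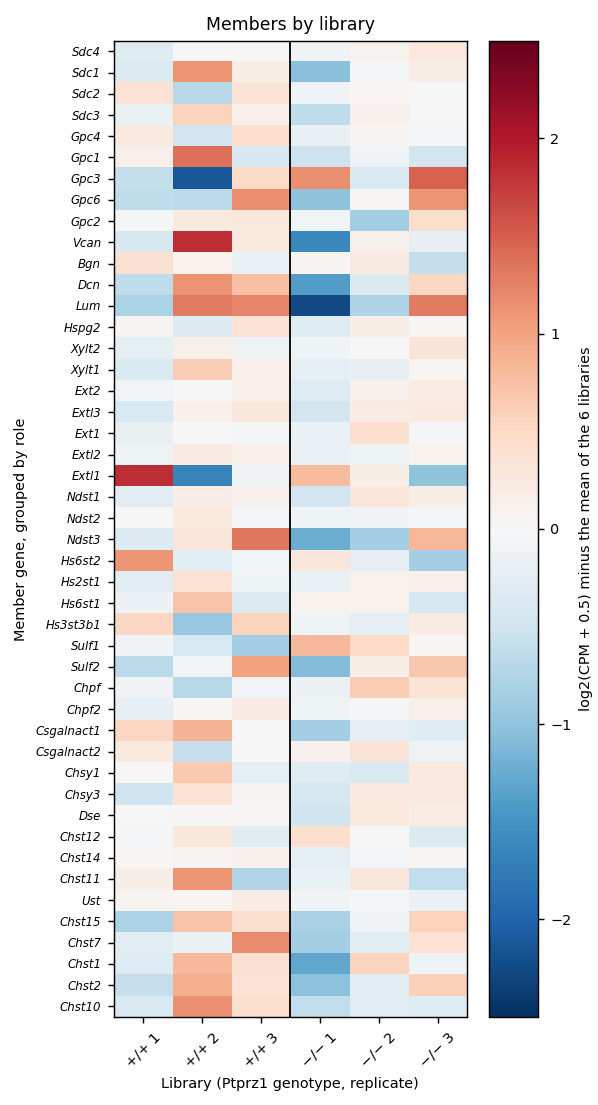
Log2 CPM (with 0.5 added) of the 46 tested members in the 6 libraries, as the difference from each gene's mean over the libraries, with red above and blue below the mean. Ptprz1-/- replicate 1 was the lowest library for 22 members and Ptprz1+/+ replicate 2 the highest for 19.

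In 5 members all 3 libraries of one genotype lay beyond the 3 of the other, which is 10.9% of the members against 7.28% of all genes tested. Sulf1 was higher in Ptprz1-/- (3.55% of all genes lay apart in this direction), and Csgalnact1, Ndst2, Ust and Chst14 were lower (3.73% of all genes). With upper-quartile normalization 3 of the 46 members lay apart, Sulf1, Csgalnact1 and Ust (6.52% against 7.09% of all genes), and with DESeq2's size factors 4 did, without Chst14 (8.7% against 7.22%). The number also moved when a library was left out, to 9 of 46 without Ptprz1+/+ replicate 2 (14.7% of all genes) and 8 of 46 without Ptprz1-/- replicate 1 (15.7% of all genes). A smaller group overlaps less easily with the other, so a rise is built in and is not particular to these libraries.

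**Figure D2:**
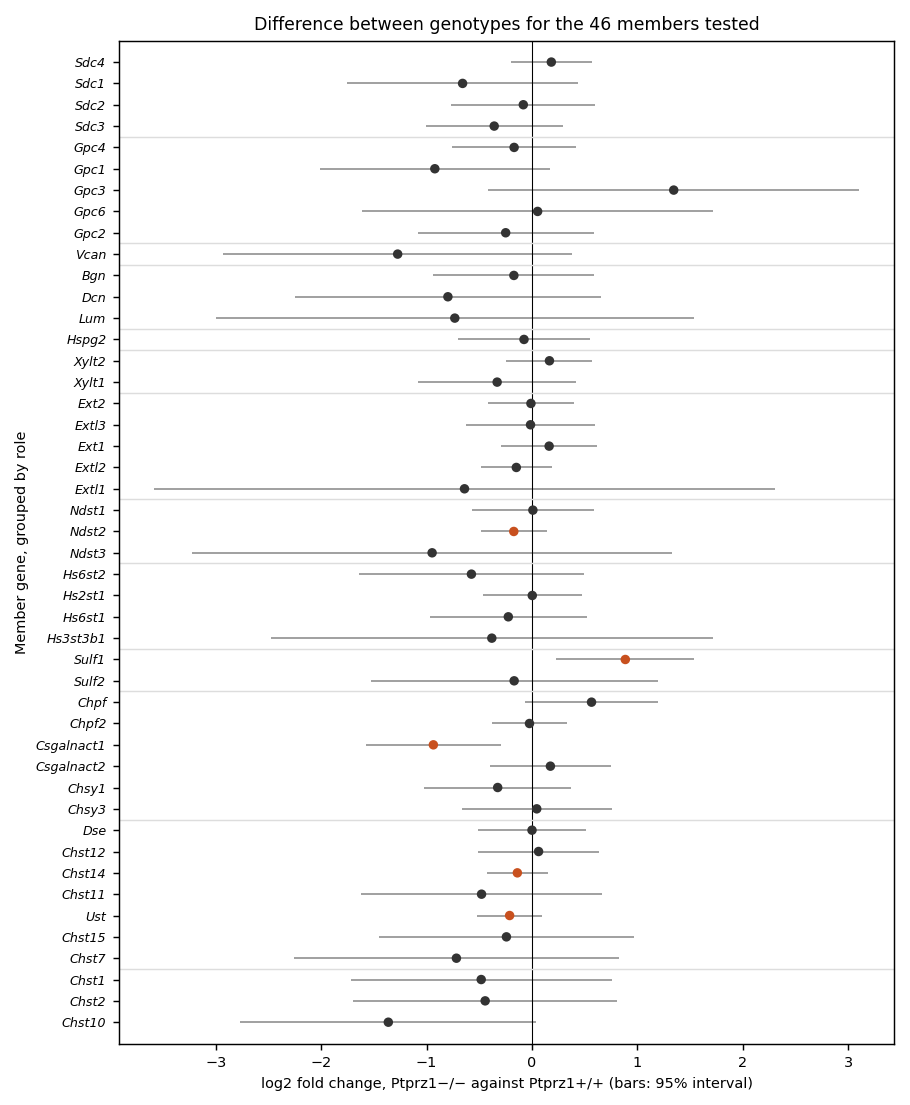
Log2 fold change of Ptprz1-/- against Ptprz1+/+ for the 46 tested members, with bars for the 95% interval of edgeR's fit, ordered by role and, within a role, by level. Orange points mark the 5 members whose genotypes did not overlap, and the bars of Sulf1 and Csgalnact1 alone leave out 0.

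Promoter windows, from 250 bases before to 50 after a RefSeq start on GRCm38.p6, were found for 34 of the 46 tested members, with 41 windows in all. They had a median GC content of 65.3% against 61.0% for 12639 windows of tested genes. The GC box GGGCGG, searched on both strands, was in 70.7% of the members' windows and 62.4% of all, and TATAAA in 4.88% and 7.11%. The windows shown are those of Bgn, the most abundant member, of Gpc3, the member with the largest difference toward Ptprz1-/-, and of Hs3st1, the related heparan sulfate 3-O-sulfotransferase with the largest difference of the pathway genes described after the members, each 5′ to 3′ on the strand of the gene, with GC boxes in capitals. A match is a description of these letters and not a binding site.
Bgn, chrX:73483351-73483650, plus strand: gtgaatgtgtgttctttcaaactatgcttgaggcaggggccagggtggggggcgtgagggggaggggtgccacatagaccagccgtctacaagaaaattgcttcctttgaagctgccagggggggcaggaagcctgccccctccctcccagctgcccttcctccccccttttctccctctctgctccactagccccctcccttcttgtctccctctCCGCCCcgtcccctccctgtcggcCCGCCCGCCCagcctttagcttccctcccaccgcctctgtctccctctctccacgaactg
Gpc3, chrX:52613925-52614224, minus strand: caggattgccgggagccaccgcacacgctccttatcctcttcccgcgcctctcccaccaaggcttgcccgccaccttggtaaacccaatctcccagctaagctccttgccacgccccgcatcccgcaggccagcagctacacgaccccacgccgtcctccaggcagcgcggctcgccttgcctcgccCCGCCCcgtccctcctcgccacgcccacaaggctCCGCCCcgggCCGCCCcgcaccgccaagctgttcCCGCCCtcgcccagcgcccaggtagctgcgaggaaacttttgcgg
Hs3st1, chr5:39644582-39644881, minus strand: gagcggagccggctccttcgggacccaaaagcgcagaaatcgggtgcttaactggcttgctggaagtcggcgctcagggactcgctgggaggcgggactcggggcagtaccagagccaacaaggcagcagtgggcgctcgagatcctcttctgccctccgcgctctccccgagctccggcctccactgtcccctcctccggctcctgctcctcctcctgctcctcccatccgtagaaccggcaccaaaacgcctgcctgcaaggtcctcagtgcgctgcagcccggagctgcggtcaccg

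Gpc3 holds 4 GC boxes in its window and Bgn 3, of which a pair overlaps, all read as CCGCCC on this strand. Hs3st1 holds 0. None of the 3 windows holds TATAAA.

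The core proteins of the cell surface were led by syndecans, transmembrane proteoglycans that carry mainly heparan sulfate. Sdc4, which acts with integrins at focal adhesions, had the highest mean level of the 4 (93.1 RPKM). Its level was 185, 229 and 228 CPM in Ptprz1+/+ and 214, 241 and 275 CPM in Ptprz1-/-, with a log2 fold change of 0.18 (SE 0.16). The genotypes overlapped, and the 6 values lay within 1.48-fold of each other. Sdc1, the syndecan best known from epithelia and plasma cells, stood at 161, 436 and 230.1 CPM in Ptprz1+/+ and 98.1, 197 and 229 CPM in Ptprz1-/- (log2 fold change -0.66, SE 0.46). Ptprz1+/+ replicate 2 was the highest library, and without it the value was -0.16. Sdc2 and Sdc3 had log2 fold changes of -0.08 (SE 0.28) and -0.36 (SE 0.27).

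The share of Sdc4 in the summed RPKM of the syndecans was 37.1, 30.6 and 37.3% in Ptprz1+/+ and 50.1, 41.9 and 43.8% in Ptprz1-/-. The shares did not overlap, with means of 35.0% ± 3.81 (SD, n = 3) and 45.3% ± 4.26 (SD, n = 3). They are a description, since no background over all genes exists for a share within a class.

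**Figure D3:**
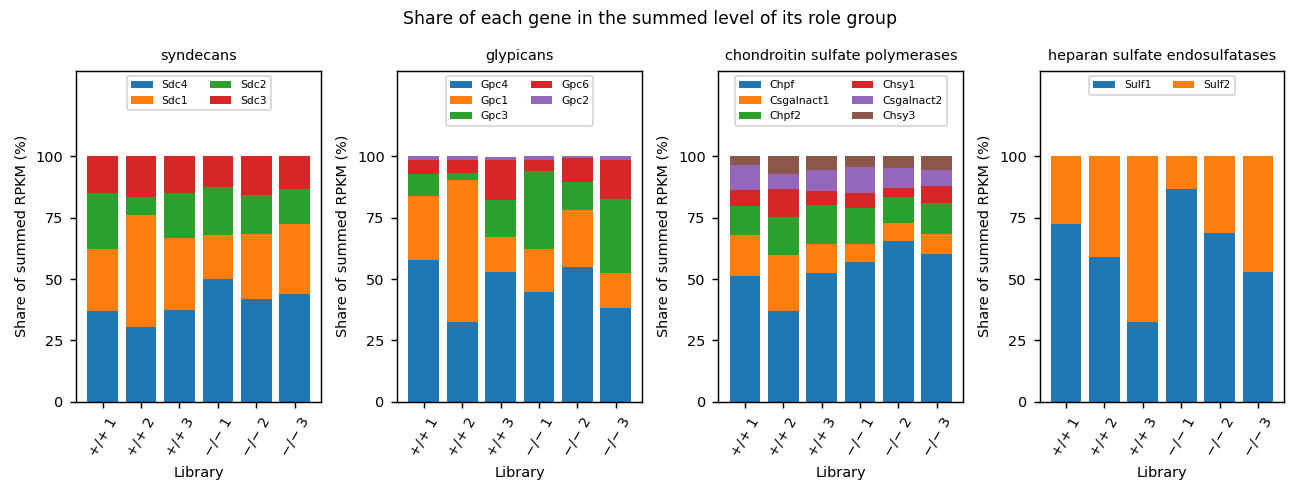
Share of each gene in the summed RPKM of its role group, in percent, for the syndecans, glypicans, chondroitin sulfate polymerases and heparan sulfate endosulfatases in each of the 6 libraries. The share of Sdc4 averaged 35.0% in Ptprz1+/+ and 45.3% in Ptprz1-/-, that of Chpf 47.0% and 60.8%, and that of Csgalnact1 17.0% and 7.71%.

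Glypicans are heparan sulfate proteoglycans held on the membrane by a lipid anchor, and they modulate signals of the Wnt, Hedgehog, BMP and FGF families. Gpc4 had the highest mean level (63.8 RPKM) and similar values in both genotypes, 195, 119 and 223 CPM in Ptprz1+/+ and 145, 173 and 160.0 CPM in Ptprz1-/- (log2 fold change -0.17, SE 0.24, 95% interval -0.76 to 0.42). Gpc1 stood at 139, 331 and 95.8 CPM and 88.9, 118 and 92.1 CPM, in the same order of genotypes. Ptprz1+/+ replicate 2 was again far above the other 5 libraries, which lay between 88.9 and 139 CPM. The log2 fold change of Gpc1 was -0.92 (SE 0.45), and -0.24 without that library.

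Gpc3, which binds Hedgehog and restrains its signal, had the largest difference toward Ptprz1-/- of the 46 members. Its level was 25.2, 8.30 and 53.5 CPM in Ptprz1+/+ (417, 151 and 848 counts) and 85.4, 29.2 and 106 CPM in Ptprz1-/- (1377, 425 and 1609 counts). The genotypes overlapped, because Ptprz1+/+ replicate 3 exceeded Ptprz1-/- replicate 2, and in both genotypes replicate 2 was lowest and replicate 3 highest. The log2 fold change was 1.35 (SE 0.73, 95% interval -0.41 to 3.11, unadjusted p = 0.112 from edgeR's quasi-likelihood test), and between 0.90 to 2.14 with each library left out in turn. Within each number the library labelled Ptprz1-/- was the higher, but the numbers were not found to pair the isolations. The summed level of the 6 mesothelial markers was 217, 55.8 and 90.7 CPM in Ptprz1+/+ and 1380, 115 and 279 CPM in Ptprz1-/-. That sum was also lowest in replicate 2 of each genotype, but it was highest in replicate 1, unlike Gpc3. The part of these markers in the difference was not tested. Among the glypicans Gpc3 made up 8.93, 2.73 and 15.1% of the summed RPKM in Ptprz1+/+ and 31.6, 11.0 and 30.4% in Ptprz1-/-, and these shares overlapped.

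Gpc6 and Gpc2 had log2 fold changes of 0.05 (SE 0.69) and -0.25 (SE 0.35). Gpc6, described here after its values were seen, stood at 49.8, 49.4 and 175 CPM in Ptprz1+/+ and 38.3, 78.9 and 167 CPM in Ptprz1-/-, and both libraries numbered 3 lay above the other 4. The exons of Gpc2 share 2376 bases on the same strand with the gene model Gm43720, and those of Gpc1 share 977 bases with Ankmy1 on the opposite strand. How reads there were counted is not known, so these counts are uncertain. The sixth glypican, Gpc5, had at most 3 counts.

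Proteoglycans of the extracellular matrix gave the highest levels of all members. Biglycan (Bgn), a small leucine-rich proteoglycan that binds collagen and carries chondroitin or dermatan sulfate, had a mean of 1247 RPKM. Its level was 4237, 3444 and 2886 CPM in Ptprz1+/+ and 3423, 3795 and 2167 CPM in Ptprz1-/-, and the genotypes overlapped (log2 fold change -0.17, SE 0.32, 95% interval -0.94 to 0.59). Decorin (Dcn), its close relative and a regulator of collagen fibrils, was next at 479 RPKM. Its values were 489, 1659 and 1290.3 CPM and 289.7, 598 and 1091 CPM in Ptprz1+/+ and Ptprz1-/- (log2 fold change -0.80, SE 0.60, and -1.37 to -0.44 with each library left out). Lumican (Lum), a keratan sulfate member of the family, had 29.9, 129.8 and 122 CPM and 10.6, 30.2 and 129 CPM (log2 fold change -0.73, SE 0.94, and -2.21 to -0.23 with each library left out). The genotypes overlapped in each of the 3 genes, while their summed RPKM did not overlap, at 1863, 2234 and 1826 in Ptprz1+/+ and 1443, 1755 and 1453 in Ptprz1-/- (a description without a test).

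Dcn and Lum were lowest in replicate 1 of both genotypes, and Bgn was lowest in replicate 3 of both. The ratio of Dcn to Bgn in RPKM was 0.163, 0.681 and 0.632 in Ptprz1+/+ and 0.120, 0.223 and 0.712 in Ptprz1-/-. The values of the 2 genotypes interleave, and the spread within a genotype, up to 5.95-fold, is wider than the distance between their means of 0.492 and 0.351. All 3 genes are strongly expressed by fibroblasts, and the 11 fibroblast markers summed to 31670, 26003 and 36753 CPM in Ptprz1+/+ and 24152, 25944 and 36040 CPM in Ptprz1-/-. The part of cell makeup in these levels was not tested.

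**Figure D4:**
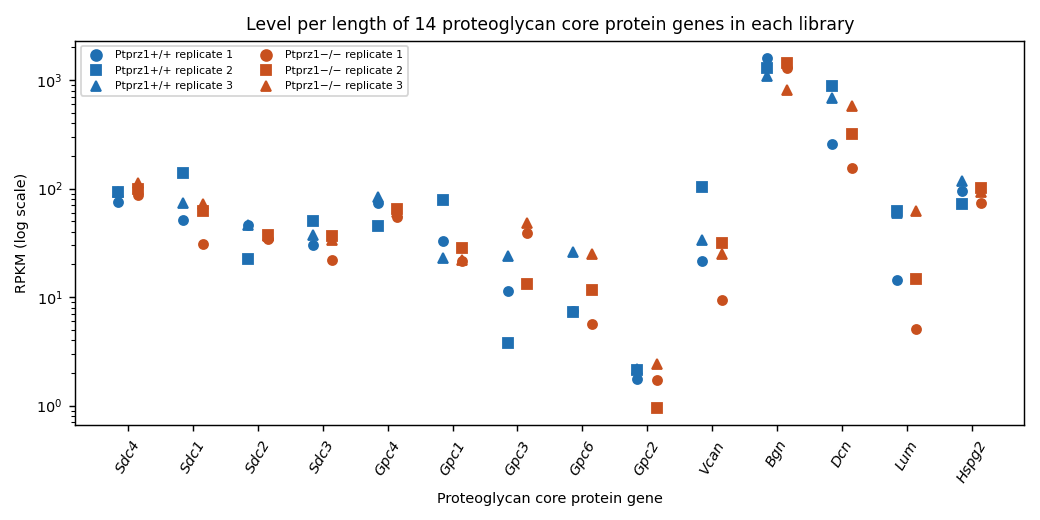
RPKM (log scale) of the 14 tested core protein genes, with 1 point for each library, blue for Ptprz1+/+ and orange for Ptprz1-/-, and a circle, square or triangle for replicate 1, 2 or 3. Mean levels ran from 1.86 RPKM for Gpc2 to 1247 RPKM for Bgn, and the colours overlap for each of the 14 genes.

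Versican (Vcan), a large chondroitin sulfate proteoglycan that binds hyaluronan, held over 99.5% of the summed RPKM of its class in each library, as brevican (Bcan) and aggrecan (Acan) had 0 to 5 counts. Vcan stood at 269.5, 1277 and 419.5 CPM in Ptprz1+/+ and 116, 388 and 309.5 CPM in Ptprz1-/-. Ptprz1+/+ replicate 2 was 11.0-fold above the lowest library, Ptprz1-/- replicate 1. The log2 fold change was -1.27 (SE 0.69, 95% interval -2.93 to 0.38), and -0.35 without Ptprz1+/+ replicate 2. This library also had the highest proliferation markers, at 667 CPM, whose part in the value was not tested. Perlecan (Hspg2), the heparan sulfate proteoglycan of basement membranes, stood at 1339.7, 1015 and 1659 CPM and 1036, 1441 and 1333 CPM (log2 fold change -0.08, SE 0.26) and spanned 1.63-fold over the libraries.

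The spread between libraries was described by the highest CPM over the lowest, without a test. The highest CPM over the lowest had a median of 3.14 for the 14 core proteins and 2.07 for the 32 enzymes, against 1.71 for all genes tested that had counts in each library. It ran from 1.48 for Sdc4 to 12.8 for Gpc3 within the cores, and from 1.27 for Chst14 to 58.2 for Extl1 within the enzymes.

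Chain synthesis begins with the xylosyltransferases, which attach xylose to a serine of the core. Xylt2 held 79.5 to 87.2% of their summed RPKM, with 31.8, 41.2 and 34.9 CPM in Ptprz1+/+ and 35.0, 38.3 and 47.7 CPM in Ptprz1-/- (log2 fold change 0.17, SE 0.17). Xylt1 had 4.77, 9.84 and 6.88 CPM and 5.27, 5.35 and 6.47 CPM (log2 fold change -0.33, SE 0.31, and -0.03 without Ptprz1+/+ replicate 2). The genotypes overlapped in both genes.

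Of the heparan sulfate polymerases, Ext1, Ext2, Extl2 and Extl3 spanned between 1.30-fold and 1.68-fold over the libraries, and Extl1 58.2-fold. Ext1 and Ext2 form the complex that extends the chain, and Extl3 adds its first residue. Ext2 was highest per length (47.6 RPKM), at 168, 174 and 191 CPM in Ptprz1+/+ and 141, 189 and 199.7 CPM in Ptprz1-/- (log2 fold change -0.01, SE 0.17, 95% interval -0.41 to 0.39). Extl3 had 132, 185 and 208 CPM and 124, 194 and 202 CPM (log2 fold change -0.01, SE 0.25, 95% interval -0.63 to 0.60). Ext1 and Extl2 had log2 fold changes of 0.16 and -0.15, and Extl1 one of -0.64 from 2 to 106 counts. In Ext2 and Extl3 both libraries numbered 3 again lay above the other 4, by a small margin.

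Sulfation of heparan sulfate starts with the N-deacetylase/N-sulfotransferases. Ndst1 held 74.1 to 83.0% of their summed RPKM and stood at 186, 251 and 241 CPM in Ptprz1+/+ and 160.2, 275 and 247 CPM in Ptprz1-/- (log2 fold change 0.01, SE 0.24, 95% interval -0.57 to 0.58). Ndst2 had 32.9, 39.4 and 31.9 CPM and 30.3, 30.5 and 31.6 CPM. Its genotypes did not overlap, but the highest Ptprz1-/- value and the lowest Ptprz1+/+ value were 31.6 and 31.9 CPM, and the log2 fold change was -0.17 (SE 0.13, unadjusted p = 0.230 from edgeR's quasi-likelihood test). Ndst3 rested on 4 to 62 counts (0.906, 1.70 and 3.91 CPM and 0.248, 0.480 and 2.64 CPM, log2 fold change -0.95, SE 0.95, and -2.57 to -0.22 with each library left out) and was highest in both libraries numbered 3. Ndst4 had at most 2 counts.

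Of the O-sulfotransferases of heparan sulfate, Hs6st2, which places 6-O-sulfate, and Hs2st1, which places 2-O-sulfate, led per length (18.7 and 17.1 RPKM). Hs6st2 had 161, 61.5 and 70.5 CPM in Ptprz1+/+ and 90.4, 64.3 and 41.8 CPM in Ptprz1-/- (log2 fold change -0.57, SE 0.44, and -0.0066 without Ptprz1+/+ replicate 1). Replicate 1 was its highest library in both genotypes, a pattern of 3 members (6.52% against 17.4% of all genes tested). Hs2st1 had 66.4, 103 and 74.4 CPM and 71.4, 85.7 and 87.7 CPM, and its log2 fold change of 0.00 had a 95% interval of -0.47 to 0.47. Hs6st1 and Hs3st3b1 had log2 fold changes of -0.22 (SE 0.31) and -0.38 (SE 0.87).

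Of the tested heparan sulfate enzymes, the endosulfatase Sulf1, which removes 6-O-sulfate from finished chains outside the cell, was the one whose Ptprz1-/- libraries all lay above the Ptprz1+/+ libraries. Sulf1 (ENSMUSG00000016918, chromosome 1 from 12692277 to 12861192 of GRCm38, plus strand) had 202, 167 and 119 CPM in Ptprz1+/+ (163 ± 41.5, SD, n = 3) and 378, 302 and 222 CPM in Ptprz1-/- (301 ± 78.1, SD, n = 3). The closest values of the genotypes were 222 and 202 CPM, and within both genotypes replicate 1 was highest and replicate 3 lowest. The fitted level was 1.85-fold higher in Ptprz1-/- (log2 fold change 0.89, SE 0.27, 95% interval 0.23 to 1.54, unadjusted p = 0.0156 from edgeR's quasi-likelihood test, adjusted p = 1.00 with Benjamini-Hochberg). With each library left out in turn it lay between 0.69 to 1.08. The summed level of 8 smooth muscle and pericyte markers was 3729, 396 and 1321 CPM in Ptprz1+/+ and 4081, 800.3 and 927 CPM in Ptprz1-/-. That sum was likewise highest in replicate 1 of both genotypes, as was the mesothelial sum. Unlike Sulf1, it was lowest in replicate 2 of both, and its genotypes overlapped. The part of these markers in the result was not tested.

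Sulf2, which has the same activity, overlapped between the genotypes. It stood at 62.3, 95.2 and 202 CPM in Ptprz1+/+ and 47.0, 112 and 161 CPM in Ptprz1-/- (log2 fold change -0.17, SE 0.57, 95% interval -1.53 to 1.19). Its order of replicates was the reverse of that of Sulf1, lowest in replicate 1 and highest in replicate 3 of both genotypes, and the endothelial markers were highest in replicate 3 of both genotypes too. Their part in the levels of Sulf2 was not tested. The ratio of Sulf1 to Sulf2 in RPKM was 2.65, 1.43 and 0.484 in Ptprz1+/+ and 6.59, 2.22 and 1.13 in Ptprz1-/-. Summed, the endosulfatases reached 49.7, 50.5 and 65.3 RPKM in Ptprz1+/+ and 77.8, 78.4 and 74.7 RPKM in Ptprz1-/-, which did not overlap either, so that sums lay apart in 2 of the 13 role groups (means 55.2 ± 8.80 and 77.0 ± 1.97, SD, n = 3). The spread of the sum in Ptprz1-/- was narrower than that of either gene, a description without a test. Exons of Sulf2 share 154 bases with Ncoa3 on the opposite strand.

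**Figure D5:**
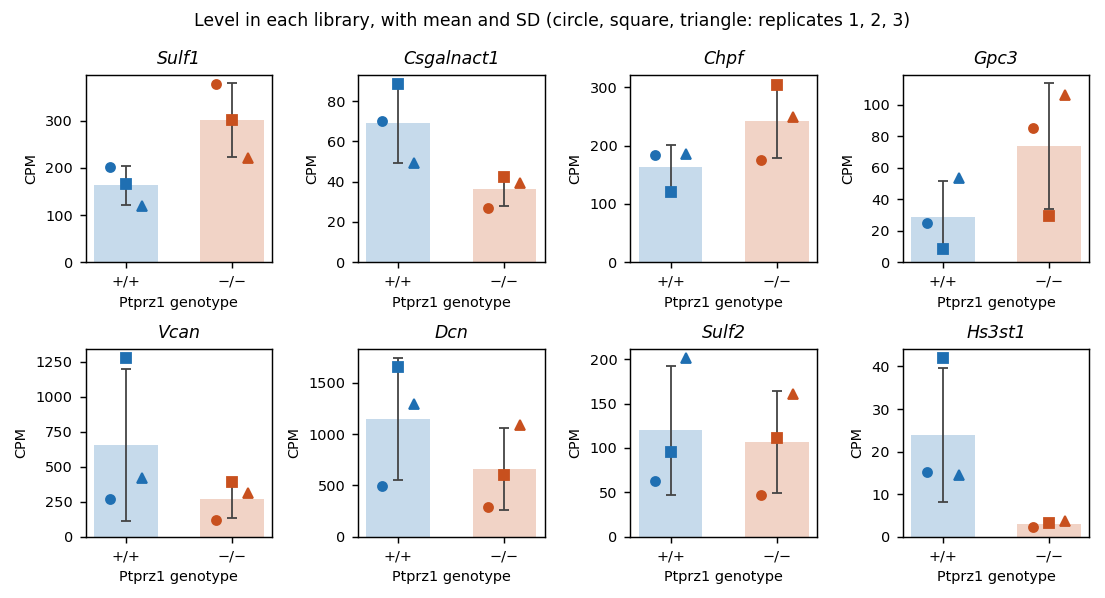
CPM of 7 members and of the related gene Hs3st1 in each library, with bars for the mean and lines for the SD of 3 libraries per genotype, and circle, square and triangle for replicates 1, 2 and 3. Genotypes do not overlap for Sulf1 (119 to 202 against 222 to 378 CPM), Csgalnact1 and Hs3st1, and overlap for Chpf, Gpc3, Vcan, Dcn and Sulf2.

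Chondroitin sulfate chains are started by Csgalnact1 and Csgalnact2, which add the first N-acetylgalactosamine, and extended by Chsy1, Chsy3, Chpf and Chpf2. Csgalnact1 (ENSMUSG00000036356, chromosome 8 from 68356781 to 68735146 of GRCm38, minus strand) had 70.0, 88.4 and 49.1 CPM in Ptprz1+/+ (69.2 ± 19.6, SD, n = 3) and 27.0, 42.3 and 39.3 CPM in Ptprz1-/- (36.2 ± 8.11, SD, n = 3). All 3 Ptprz1-/- libraries were below all 3 Ptprz1+/+ libraries. The fitted level was 1.91-fold lower in Ptprz1-/- (log2 fold change -0.94, SE 0.27, 95% interval -1.58 to -0.29, unadjusted p = 0.0114 from edgeR's quasi-likelihood test, adjusted p = 1.00 with Benjamini-Hochberg), and between -1.13 to -0.72 with each library left out in turn. Csgalnact2, with the same activity, had a log2 fold change of 0.18 (SE 0.24).

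Chpf, which works with the Chsy enzymes in chain extension, was the most abundant of this class (60.9 RPKM). It stood at 184, 121 and 186 CPM in Ptprz1+/+ and 175, 303 and 248 CPM in Ptprz1-/- (log2 fold change 0.57, SE 0.26, 95% interval -0.07 to 1.20). Ptprz1-/- replicates 2 and 3 lay above all Ptprz1+/+ libraries, and replicate 1 did not. Its relative Chpf2 had 68.7, 80.1 and 91.2 CPM and 73.1, 76.5 and 86.6 CPM (log2 fold change -0.02, SE 0.15), and 2466 bases of its exons lie opposite those of Smarcd3. Chsy1 and Chsy3 had log2 fold changes of -0.32 (SE 0.29) and 0.05 (SE 0.30).

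Of the 6 genes of this class, Chpf and Csgalnact1 had shares that did not overlap between the genotypes. Chpf made up 51.4, 37.1 and 52.6% of the summed RPKM in Ptprz1+/+ and 56.8, 65.4 and 60.1% in Ptprz1-/-. Csgalnact1 made up 16.5, 22.9 and 11.7% and 7.39, 7.70 and 8.05%, with means of 17.0% ± 5.60 and 7.71% ± 0.33 (SD, n = 3). The total of the class overlapped between the genotypes, at 97.9 to 107 RPKM in Ptprz1+/+ and 92.6 to 139 RPKM in Ptprz1-/-. As for the syndecans, the shares are a description without a background over all genes. They are parts of the same total, so the shares of Chpf and Csgalnact1 are not independent of each other.

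The modifiers of chondroitin and dermatan sulfate were led by Dse, the epimerase that turns chondroitin into dermatan, with 168, 174 and 173 CPM in Ptprz1+/+ and 119.8, 203 and 193 CPM in Ptprz1-/- (log2 fold change 0.00, SE 0.21, 95% interval -0.52 to 0.52). Chst12, a chondroitin 4-O-sulfotransferase, had 66.5, 83.3 and 55.7 CPM and 91.6, 68.8 and 54.3 CPM (log2 fold change 0.06, SE 0.24). Neither gene separated the genotypes. Chst14, which sulfates dermatan, had 44.6, 44.9 and 46.1 CPM and 36.3, 42.3 and 44.6 CPM, and the genotypes faced each other at 44.64 and 44.59 CPM (log2 fold change -0.14, SE 0.12). Ust, the uronyl 2-O-sulfotransferase, had 21.7, 21.5 and 23.7 CPM and 19.4, 20.0 and 18.5 CPM (log2 fold change -0.21, SE 0.13, unadjusted p = 0.147 from edgeR's quasi-likelihood test). Its genotypes lay apart under each of the 3 scalings, by a difference that is small beside those of Sulf1 and Csgalnact1. Chst7, a chondroitin 6-O-sulfotransferase, rested on 13 to 76 counts (1.45, 1.59 and 4.80 CPM and 0.806, 1.44 and 2.51 CPM, log2 fold change -0.72, SE 0.64) and was highest in both libraries numbered 3. Chst11 and Chst15 had log2 fold changes of -0.48 (SE 0.48) and -0.24 (SE 0.50).

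Among the remaining carbohydrate sulfotransferases, Chst1 and Chst2, which sulfate galactose and N-acetylglucosamine, had 11.5, 25.7 and 19.1 CPM and 12.8, 36.5 and 24.9 CPM in Ptprz1+/+. In Ptprz1-/- they had 5.58, 21.4 and 13.3 CPM and 9.24, 15.9 and 29.5 CPM, with log2 fold changes of -0.48 (SE 0.52) and -0.44 (SE 0.52). Both genes were lowest in Ptprz1-/- replicate 1, without which Chst1 had a value of -0.11, and highest in Ptprz1+/+ replicate 2, without which Chst2 had one of -0.054. Chst10, the sulfotransferase of the HNK-1 epitope, had the lowest log2 fold change of the 46 members, -1.36 (SE 0.58, unadjusted p = 0.0552 from edgeR's quasi-likelihood test), from 11, 52 and 25 counts in Ptprz1+/+ and 8, 11 and 11 counts in Ptprz1-/-. Libraries of the genotypes shared a count of 11, and without Ptprz1+/+ replicate 2 the value was -0.76.

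The 15 members left untested had between 0 and 15 counts in any library. They were Gpc5, Acan and Bcan of the core proteins, Ndst4, Hs3st3a1, Hs3st4, Hs3st5, Hs3st6 and Hs6st3 of the heparan sulfate enzymes, and Chst3, Chst4, Chst5, Chst8, Chst9 and Chst13 of the other sulfotransferases. At this depth a difference was not detectable in them.

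Some members had the same highest replicate in both genotypes. In 11 members replicate 3 was the highest library in both genotypes (23.9% against 14.1% of all genes tested), and in 12 members replicate 2 was (26.1% against 9.52%). The first group held Gpc2, Gpc3, Gpc6, Ext2, Extl3, Ndst3, Hs3st3b1, Sulf2, Chpf2, Chst7 and Chst14, and in 8 members both libraries numbered 3 exceeded the other 4 (17.4% against 10% of all genes). The second held Vcan, Gpc1, Sdc3, Csgalnact1, Chsy3, Chst1, Chst10, Chst11, Dse, Ext1, Hs6st1 and Ndst1. The endothelial list behaved like the first group, with 10 of its 12 markers highest in replicate 3 of both genotypes. The part of cell makeup in these groupings was not tested.

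The other genes of the pathway, 64 in all and 55 tested, were 26 higher and 29 lower in Ptprz1-/-, and edgeR called none of them, with 3 at an unadjusted p under 0.05 (5.45% against 2.69% of all genes tested). By class, the lower side held 4 of 8 genes of the linker and other heparan sulfate enzymes, 6 of 9 of sulfate donor and sugar supply, 7 of 16 other core proteins, 6 of 9 of hyaluronan synthesis and turnover, and 6 of 13 of lysosomal breakdown. Genotypes did not overlap in 3 genes, which is 5.45% against 7.28% of all genes tested in either direction. All 3 were lower in Ptprz1-/-, a direction in which 3.73% of all genes lay apart.

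Of these, Hs3st1 (ENSMUSG00000051022, chromosome 5 from 39613935 to 39755475 of GRCm38) places the 3-O-sulfate of the antithrombin-binding site on heparan sulfate. It had 15.1, 42.1 and 14.5 CPM in Ptprz1+/+ (250, 765 and 230 counts) and 2.30, 3.09 and 3.57 CPM in Ptprz1-/- (37, 45 and 54 counts). The lowest Ptprz1+/+ library was thus well above the highest Ptprz1-/- library, and the fitted level was 8.00-fold lower in Ptprz1-/- (log2 fold change -3.00, SE 0.50, 95% interval -4.20 to -1.79). Adjusted by Benjamini-Hochberg, its p was 1.00 under edgeR and 1.02e-05 under DESeq2, so that the call depends on the tool. Pxylp1, the phosphatase that removes phosphate from the linker xylose, had 11.2, 37.3 and 7.38 CPM and 3.66, 4.6 and 5.61 CPM (log2 fold change -2.01, SE 0.63, and -1.0 without Ptprz1+/+ replicate 2). Papss1, which makes the sulfate donor that sulfotransferases use, had 60.8, 72.3 and 49.1 CPM and 48.2, 41.1 and 43.1 CPM (log2 fold change -0.46, SE 0.17).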

How the data were processed

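Total RNA of cells labelled as lung microvascular endothelial cells was sequenced in 6 libraries, grouped by the genotype and numbered by the replicate of the sample labels. In the deposited table, each gene has a raw read count for each library. The authors' FPKM values equal these counts divided by the gene length and by the library's total. A deposited mean signal per genotype was not used. Its log2 fold change and p-value columns, with the 3 deposited gene lists, are the authors' own comparison and were not used. The submitters' processing notes name STAR, TopHat, HTSeq, DESeq2 and edgeR, without a role or version, and GRCm38/mm10. The use of strand in counting is not given in the sources used here, so genes with overlapping exons in GENCODE M21 are uncertain. Beside the tested members marked above, these are Chst15, Hs6st1, Sdc3 and Chsy1, whose exons overlap antisense genes on the opposite strand. The number of sample columns that could not be mapped was 0.

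After TMM scaling, edgeR 4.0.16 (R 4.3.3) tested the counts (filterByExpr, glmQLFit, glmQLFTest, genotype as the only term, Benjamini-Hochberg adjustment over all genes tested, threshold 0.05). Standard errors come from the F statistic. RPKM was computed from the TMM-scaled library size and the deposited gene length. The CPM of Ptprz1 alone was compared by an exact two-sided permutation test over samples. DESeq2 1.42.0 was run as an alternative, as were upper-quartile scaling, a fit of all genes without the low-count filter, a stricter filter (10 counts in each library), the replicate number as a block, and fits that left out 1 library.

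Members and lists were chosen with earlier results of these data known. Values are given for members past the threshold in edgeR or DESeq2, for members whose genotypes did not overlap, for the 10 with the largest absolute log2 fold change, and for the 2 with the highest mean RPKM in each of 13 role groups. Of the other pathway genes, those whose genotypes did not overlap are named. The whole table gave the background shares. Members with too few counts, 15 in all, were not tested. Between 14496881 and 17709663 counts per library were deposited, and genes with few counts have wide intervals.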

Additional observations from a re-analysis of the deposited data

How the results depend on the processing

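Across the 11 alternatives, DESeq2 among them, 0 members were called. DESeq2 called 31 genes over the whole table where edgeR's quasi-likelihood test called 0, among them Hs3st1 (log2 fold change -3.00). With upper-quartile normalization, 3 members in place of 5 had genotypes that did not overlap (7.09% of all genes in place of 7.28%). After the data were examined, the count of members lower in Ptprz1-/- was repeated without the libraries that stood apart, and without both Ptprz1+/+ replicate 2 and Ptprz1-/- replicate 1 it was 19 in place of 33, a fall that the choice of these libraries builds in. Without both libraries numbered 3 it was 30 of 45. The causes were not tested.

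Some log2 fold changes reversed sign. With upper-quartile normalization that of Ndst1 was -0.0062, of Hs2st1 -0.011 and of Dse -0.012, and with at least 10 counts in every sample that of Hs2st1 was -0.0019 and of Dse -0.0042. Leaving out 1 library at a time, these values also took both signs, with a range of -0.357 to 0.0873 for Sdc2, -0.396 to 0.0212 for Gpc4, -0.648 to 0.934 for Gpc6, -0.602 to 0.0372 for Gpc2, -0.335 to 0.0356 for Bgn, -0.242 to 0.109 for Hspg2, -0.109 to 0.134 for Ext2, -0.177 to 0.183 for Extl3, -0.0375 to 0.280 for Ext1, -1.29 to 1.29 for Extl1, -0.151 to 0.211 for Ndst1, -0.120 to 0.211 for Hs2st1, -0.421 to 0.171 for Hs6st1, -0.936 to 0.0266 for Hs3st3b1, -0.601 to 0.436 for Sulf2, -0.118 to 0.0816 for Chpf2, -0.0292 to 0.368 for Csgalnact2, -0.155 to 0.250 for Chsy3, -0.136 to 0.209 for Dse, -0.150 to 0.229 for Chst12, -0.820 to 0.120 for Chst11, -0.671 to 0.0841 for Chst15, -1.22 to 0.0576 for Chst7, -0.600 to 1.72 for Ogn, -0.532 to 0.448 for Col18a1, -2.45 to 0.276 for Has2 and -1.33 to 0.334 for Cemip. The other 23 of the 46 members kept their sign in the alternatives run.

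The correlation of deviations from the genotype means was 0.46, -0.06 and 0.53 for libraries with the same number. Those for numbers 1 and 3 were the highest of all pairs, but neither library numbered 2 correlated best with the other. The numbers were therefore not taken to pair the samples. With the replicate number as a block, 0 members passed the threshold (lowest p 0.538 in edgeR after Benjamini-Hochberg adjustment), 9 in place of 2 had an unadjusted p under 0.05 (19.6% in place of 4.35%, where all genes had 5.07% in place of 2.69%), and the values of Ndst1 and Dse were -0.016 and -0.036. Those of Sulf1 and Gpc3 were 0.89 (SE 0.12) and 1.51 (SE 0.21), with unadjusted p of 0.00097 and 0.0013 in edgeR's blocked quasi-likelihood test.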

Other observations

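Of 16 core proteins tested outside the members, 9 were highest in replicate 3 of both genotypes (14.1% of all genes tested were), and 3 of them are named here after their values were seen. Osteoglycin (Ogn), a small leucine-rich proteoglycan, had 111, 25.8 and 338 CPM in Ptprz1+/+ and 88.8, 121 and 467 CPM in Ptprz1-/- (log2 fold change 0.51, SE 0.99). Podocan (Podn), of the same family, had 109, 23.2 and 199.6 CPM and 102, 268 and 392 CPM (log2 fold change 1.20, SE 0.80). Col18a1, the basement membrane proteoglycan from which endostatin is cut, had 104, 74.0 and 219.5 CPM and 59.8, 124 and 179.8 CPM (log2 fold change -0.13, SE 0.52). None passed edgeR's quasi-likelihood test, and both genotypes overlapped in each.

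Of the hyaluronan genes, 2 are named here, also after their values were seen, for their values in Ptprz1+/+ replicate 2. Has2, the main hyaluronan synthase of many mesenchymal cells, had 7.25, 71.4 and 4.61 CPM in Ptprz1+/+ and 7.01, 7.0 and 7.53 CPM in Ptprz1-/- (log2 fold change -1.95, SE 1.02), and without Ptprz1+/+ replicate 2 the value was 0.28. The same library was the highest for Vcan, whose protein binds hyaluronan. Cemip, which is needed for hyaluronan breakdown, was lowest of the 6 in that library, with 1067, 289.8 and 2604 CPM in Ptprz1+/+ and 415, 642 and 1509 CPM in Ptprz1-/- (log2 fold change -0.63, SE 0.82).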
